A study of Mus musculus with 6 samples.

Results

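Glutamate receptor genes and the genes of the scaffolds that hold these receptors at the postsynaptic membrane were followed in the mouse auditory nerve from young adulthood to old age. Members were the rows of the deposited table whose symbols begin with Gria, Grik, Grin, Grid or Grm, or with Homer, Shank, Dlg, Dlgap or Cnih, followed by a digit. Grm8 was left out by the rule. The name pattern took 45 of 17607 rows, and 44 of them had a mean normalised read count of at least 10 over the 6 libraries. Grin2a, with a mean of 2.68, fell outside this limit, and the lowest means inside it were those of Dlgap5 (11.5) and Grin2b (14.3). The pattern also took Grin1os, a transcript that runs antisense to Grin1. All 44 entered the statistical fit.

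The young group was 3 CBA/CaJ mice aged 2 months and the old group 3 CBA/CaJ mice aged 2.5 years. The nerve was dissected out of the cochlea, and the tissue of the 2 cochleas of a mouse made 1 library, so replicates are separate animals. No genotype or treatment besides age and strain stands in the labels. The libraries held 34587978 to 40841478 reads after conversion of the deposited values to whole reads. Values below are normalised read counts, and young 1 stood apart from the other libraries in several receptor genes with few reads.

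Glutamate is the transmitter that inner hair cells release onto the peripheral endings of spiral ganglion neurons, whose cell bodies and axons lie in the auditory nerve. AMPA receptors, tetramers of the GluA subunits encoded by the Gria genes, carry the fast current at this synapse. NMDA receptors need the GluN1 subunit encoded by Grin1 together with GluN2 or GluN3 subunits, kainate receptors are built of Grik products, and metabotropic receptors of the Grm family act through G proteins. Behind the membrane, proteins of the PSD-95 family (Dlg) bind receptor tails, the SAPAP proteins (Dlgap) link them to the Shank proteins, and Homer proteins tie Shank to group I metabotropic receptors. These genes work in many kinds of neuron, and some are also used by glia and epithelia.

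In old nerves 8 of 16 genes of the Dlg, Dlgap, Shank and Homer scaffolds fell, among them Dlg4 (PSD-95), Dlgap3 and Shank1. Of 22 receptor genes 5 fell, a share near the 18.7% of all tested genes that fell. With trends of transcript length and GC removed, 5 of these scaffold genes fell and 4 rose, and 1 receptor gene fell and 1 rose. In that fit 12.7% of all tested genes fell and 10.2% rose. Of the 44 members, 14 (31.8%) fell at an adjusted p under 0.05 in limma, where 18.7% of all tested genes fell, and none rose, where 15.9% did (34.6% of all tested genes passed in either direction). Without adjustment 18 members had a p under 0.05 as lower and 5 as higher, and edgeR on recovered reads counted 14 lower and 1 higher. The 14 were Gria2, Gria4, Grik3, Grik5, Grin2d, Cnih2, Dlg2, Dlg4, Dlgap1, Dlgap2, Dlgap3, Shank1, Shank3 and Homer2. The median log2 fold change of the members was -0.33, against -0.0008 over all tested genes. It was -0.18 when young 1 was left out. All old libraries lay below all young ones in 17 members, and above them in 3. The shares over all tested genes were 26.3% and 25.5%. Leaving out young 2 gave 9 falls, and leaving out young 1 together with old 2 gave 5. Leaving out 1 library turned the sign of 13 members, none of which passed.

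**Figure D1:**
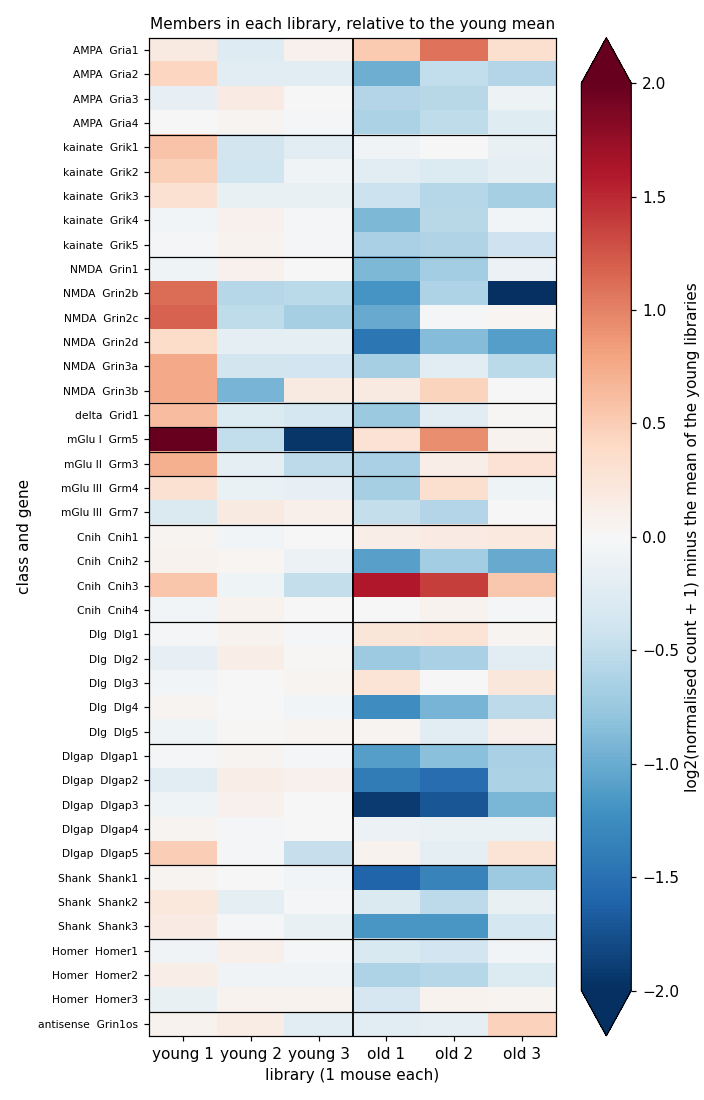
Each row is 1 of 41 members and each column 1 library. Colour gives log2(normalised count + 1) minus the mean of the 3 young libraries, with values past 2 in either direction drawn at the end of the scale. Dlg4, the Dlgap1 to Dlgap3 rows, Shank1 and Shank3 are blue in the old libraries, Gria1 and Cnih3 are red, and Grm5 is dark red in young 1.

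Members that fell had longer transcripts with more GC than those that did not pass. The longest coding transcript of a member had a median of 5436 nt, against 3165 nt over all tested genes, and the 14 that fell had medians of 6749.5 nt and 54.7% GC. The 30 that did not pass had medians of 4925.5 nt and 48.9% GC. After detrending, that is, subtracting smooth curves for length and GC library by library, 7 of the 44 members fell and 5 rose. Both counts were near the shares over all tested genes, 12.7% and 10.2%, and the members' median was -0.13. Of the 16 scaffold genes 5 fell and 4 rose, and of the 22 receptor genes 1 fell and 1 rose. The 7 falls were Gria4, Cnih2, Dlg4, Dlgap1, Dlgap2, Dlgap3 and Shank1. The 5 rises were Gria1, Dlg1, Dlg3, Dlg5 and Dlgap4.

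Levels of cell type markers differed between the groups too. Summed over 14 general neuronal genes, the normalised counts were 392879 to 424939 in young libraries and 237988 to 350721 in old ones. Of these 14, Nefl, Nefm, Rbfox3 and Elavl3 fell, where 18.7% of all tested genes fell, and none rose, with a median log2 fold change of -0.45. The other 10 did not pass, among them Tubb3 (-0.23), Snap25 (-0.35), Stmn2 (-0.02) and Prph (0.32). The neuronal sum was lowest in old 1 and highest in old 3 among old libraries. Of the 14 members that fell, 13 were higher in old 3 than in old 1. The matching share over all genes that fell was not computed, so this order is not shown to be particular to the members. Macrophage markers, summed, were at 4399 to 5690.3 in young and 10599 to 15416 in old libraries (7 of 8 rose), and those of satellite glia and astrocytes at 82009 to 92454 and 126356 to 146327 (4 of 7 rose). Those of Schwann cells were at 414275 to 483578 and 409510.4 to 462782 (4 of 10 fell and 1 rose). Those of bone, which surrounds the nerve, were at 5093 to 7194 and 1987 to 3700 (4 of 6 fell, median -1.25), also without overlap. Oligodendrocyte markers were at 43399 to 44417 and 38670 to 42238 (1 of 7 fell). The part of neurons and of these other cells in the members' values was not tested, and in bulk tissue fewer cells of a type and less RNA per cell cannot be told apart. Markers of hair cells, the presynaptic partner, were present in all libraries. Their summed counts were 2628 to 6491 in young and 2308 to 5344 in old libraries, and none of the 9 tested passed in limma or without adjustment, nor did any in edgeR.

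Promoters of 4 members that fell are shown because these genes fell together and their start regions differ in composition. They are the largest falls among the members with a single start in the RefSeq promoter table, which held 30 of the 44 members and 12 of the 14 that fell. Each is the 250 bases before the RefSeq start, 5′ to 3′ on the gene's strand, in GRCm38.p6, with CG dinucleotides in capitals. They lie at chr4:127172630-127172879 (Dlgap3, plus strand), chr7:45866682-45866931 (Grin2d, minus strand), chr19:5098522-5098771 (Cnih2, minus strand) and chr15:89499358-89499607 (Shank3, plus strand). The Dlgap3 window lies inside the deposited span of its gene, which begins at 127169204, so it precedes an internal start. Those of Grin2d, Cnih2 and Shank3 lie outside the spans of their genes.
Dlgap3: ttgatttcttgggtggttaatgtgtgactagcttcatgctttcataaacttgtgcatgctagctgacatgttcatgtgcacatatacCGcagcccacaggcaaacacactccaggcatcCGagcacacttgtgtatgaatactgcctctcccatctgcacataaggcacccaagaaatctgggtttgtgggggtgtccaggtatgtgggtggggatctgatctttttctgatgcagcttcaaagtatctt
Grin2d: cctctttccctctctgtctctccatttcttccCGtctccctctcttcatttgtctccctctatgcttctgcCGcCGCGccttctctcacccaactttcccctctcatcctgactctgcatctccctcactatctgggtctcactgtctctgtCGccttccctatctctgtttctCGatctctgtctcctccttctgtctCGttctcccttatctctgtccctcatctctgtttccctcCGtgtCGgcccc
Cnih2: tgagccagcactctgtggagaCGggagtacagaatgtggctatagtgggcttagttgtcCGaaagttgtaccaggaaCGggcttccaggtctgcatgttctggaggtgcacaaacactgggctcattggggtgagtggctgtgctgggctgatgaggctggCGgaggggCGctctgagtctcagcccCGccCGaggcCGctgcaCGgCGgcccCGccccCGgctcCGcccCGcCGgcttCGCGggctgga
Shank3: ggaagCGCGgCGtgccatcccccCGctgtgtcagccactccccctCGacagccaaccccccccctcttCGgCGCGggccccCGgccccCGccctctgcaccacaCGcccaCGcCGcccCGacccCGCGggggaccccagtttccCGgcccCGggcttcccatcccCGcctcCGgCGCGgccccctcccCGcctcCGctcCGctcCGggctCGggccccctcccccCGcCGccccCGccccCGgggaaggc
The CG dinucleotides number 2 in Dlgap3, 9 in Grin2d, 17 in Cnih2 and 31 in Shank3. The GC box GGGCGG, sought on both strands, was found 3 times in Cnih2 and 4 times in Shank3, and not in the windows of Dlgap3 and Grin2d. Among all 32851 promoter windows of this length 32.7% held a GC box, against 20 of 43 windows (46.5%) of members and 6 of 18 windows (33.3%) of members that fell. The median number of CG dinucleotides was 6 over all windows and 9 over those of members, also for those that fell.

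Calls differed among the AMPA receptor genes, whose fold changes were not tested against each other. Gria4 and Gria2 fell, Gria3 had a log2 fold change of -0.41 ± 0.15 that did not pass, and Gria1 pointed the other way. Gria4, which encodes GluA4, stood at 5179.7, 5379 and 5028 in young 1, 2 and 3 and at 3353, 3655 and 4401 in old 1, 2 and 3. The groups did not overlap, and the mean fell from 5196 ± 176 to 3803 ± 539 (SD, n = 3; log2 fold change -0.46 ± 0.10 SE, adjusted p = 0.0156). Gria4 passed in 14 of 18 alternatives. It did not pass without young 2, where the log2 fold change was -0.43. Gria2 encodes GluA2, the subunit whose RNA-edited form makes AMPA receptors impermeable to calcium. Its normalised counts were 5358, 3453 and 3446 in young and 2020.2, 2853 and 2675 in old libraries. Young 1 was far above the other young libraries, and the mean went from 4086 ± 1102 to 2516 ± 439 (log2 fold change -0.68 ± 0.20, adjusted p = 0.0371). Gria2 passed in 8 of 18 alternatives. It missed the threshold without young 1 (-0.47), young 2 (-0.79), young 3 (-0.79), old 1 (-0.53) or old 3 (-0.73), and after detrending (-0.54).

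Gria3 (GluA3), the most abundant AMPA gene per kb, was at 5321, 6669.6 and 5935 in young and 3958, 4055 and 5549.9 in old libraries. Old 3 lay within the young range, and Gria3 did not pass (adjusted p = 0.0646), although it did without old 3 (-0.57), in DESeq2 and in the authors' deposited table. Gria1 (GluA1) was at 487, 359.8 and 458 in young and 623, 913 and 542 in old libraries. All old values were above all young ones, with a log2 fold change of 0.65 ± 0.21 that narrowly missed the threshold (adjusted p = 0.0504). It passed as higher in 6 of 18 alternatives, among them edgeR, DESeq2, the fit without old 3 (0.80) and the detrended fit (0.82).

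Per kb of transcript, the order in young nerves was Gria3 (1151 ± 130.1), Gria4 (955 ± 32.3), Gria2 (394 ± 106) and Gria1 (78.4 ± 12.03). The Gria2 value divides by a longest transcript of 10371 nt and would be higher for a shorter isoform. Gria1 made up 3.40%, 2.43% and 3.33% of the summed AMPA level per kb in young libraries and 6.66%, 8.70% and 4.37% in old ones. Its share was thus larger in every old library than in any young one, with means of 3.05% ± 0.54 and 6.58% ± 2.16. The exact two-sided permutation p was 0.1, the smallest that 3 against 3 mice allow, and 0.273 adjusted over 41 shares. Gria4 held 37.0% ± 0.18 of the AMPA level in young and 36.1% ± 0.54 in old nerves, also without overlap (exact permutation p = 0.1). The share of Gria2 overlapped between the groups (15.3% ± 4.12 and 12.5% ± 1.72, exact permutation p = 0.5). None of the 41 shares could pass with these group sizes, adjusted or not.

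**Figure D2:**
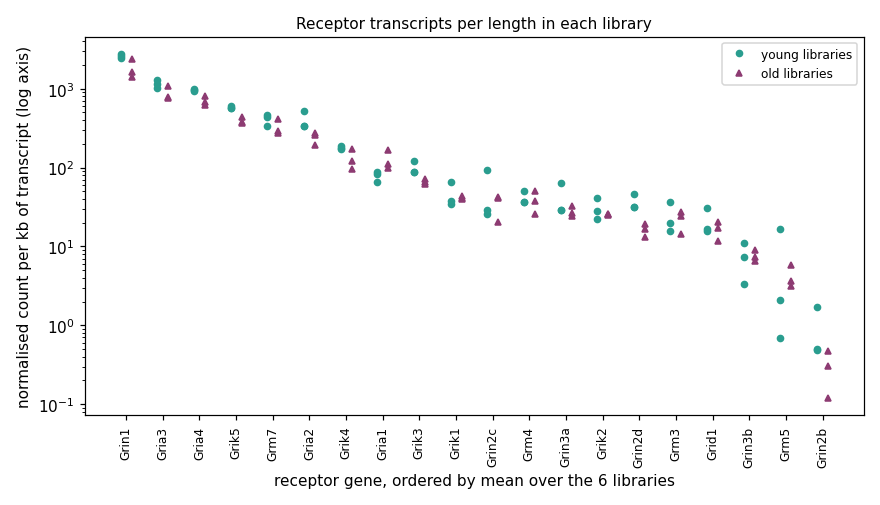
Points give the normalised count per kb of the longest coding transcript in each library on a log axis, for 20 receptor genes ordered by their mean over the 6 libraries; circles are young and triangles old libraries. Grin1 stands at the top and Grin2b at the bottom, and the old points of Gria1 lie above the young ones.

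Cornichon proteins are cargo receptors of the secretory pathway, and those encoded by Cnih2 and Cnih3 also bind AMPA receptors and slow their closing. Cnih2 fell from 274, 269 and 241 in young to 123, 160.4 and 129 in old libraries, with no overlap (log2 fold change -0.93 ± 0.15, adjusted p = 0.00711). It passed in all 18 alternatives, with adjusted p from 1.32e-05 to 0.0479, and its exons overlap those of Yif1a on the opposite strand. Cnih3 was scarce, at 23.5, 14.7 and 11.01 in young and 49.7, 42.7 and 23.2 in old libraries. The lowest old value was under the highest young one, and its log2 fold change of 1.18 ± 0.42 did not pass (adjusted p = 0.0649), except without old 3. Cnih1, which has a general role in export from the endoplasmic reticulum, was the most abundant of the family per kb, at 2849, 2629 and 2717 in young and 3002, 3065 and 3121 in old libraries. Its old values all exceeded the young ones by a small margin (0.17 ± 0.06, adjusted p = 0.0717), and the value was -0.25 after detrending. Cnih4 differed little, with means of 1848 ± 73.6 and 1856 ± 78.5 (0.01 ± 0.07). The share of Cnih2 in the cornichon level per kb went from 7.65% ± 0.44 to 3.81% ± 0.50 (exact permutation p = 0.1).

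Kainate receptor genes were lower in 2 of 5 cases, both lost after detrending. Grik5 encodes GluK5, a subunit that binds glutamate with high affinity but needs a partner of the GluK1 to GluK3 group to form a channel. It was the most abundant kainate gene per kb, with normalised counts of 2146, 2285 and 2111 in young and 1385, 1440.4 and 1631 in old libraries. The groups were well apart (log2 fold change -0.56 ± 0.08, adjusted p = 0.0058), and after detrending the value was -0.11. Grik3 (GluK3) went from 1082, 789 and 788 to 648, 589 and 554 (-0.56 ± 0.14, adjusted p = 0.0236). Its groups did not overlap, and it missed the threshold without old 2 (-0.55), without old 3 (-0.50) and after detrending (-0.11). Grik4 (GluK4), the other high-affinity subunit, stood at 998, 1101 and 1028 in young and 560.3, 709 and 1008 in old libraries. Old 3 was inside the young range, and Grik4 did not pass (-0.50 ± 0.20, adjusted p = 0.0899), though it did without old 3 (-0.72), and the value was -0.30 without old 1. Grik1 and Grik2 were at means of 153 to 289 with overlapping groups (-0.07 and -0.22). Both were highest in young 1, at 239 and 390.2, and without it the log2 fold changes were 0.21 and 0.02. Per kb, Grik5 made up 62.2% ± 2.95 of the kainate level in young and 60.1% ± 0.92 in old nerves.

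Grin1, whose product every NMDA receptor contains, had the highest level per kb of all members in young nerves, at 2605 ± 156. In old nerves it was at 1803 ± 523, under the 1991 ± 38.5 of Cnih1. Its normalised counts were 10458, 11788 and 11172 in young and 5991, 6901 and 10236 in old libraries. Old 3 came close to the lowest young value without reaching it, and the log2 fold change of -0.57 ± 0.18 narrowly missed the threshold (adjusted p = 0.0503). Grin1 passed in 4 of 18 alternatives, among them the fit without old 3 (-0.79), and its value was -0.20 after detrending. Part of its exons overlap those of the antisense transcript Grin1os, which was at 203 ± 27.0 and 209.7 ± 60.4. No source used here says whether the libraries kept strand, so reads of the overlap cannot be assigned to either gene.

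Of the GluN2 genes, which set the kinetics of NMDA receptors, Grin2d fell. It was at 250.1, 172 and 169.6 in young and 70.8, 105 and 89.9 in old libraries, so that the highest old value was under the lowest young one. The mean dropped 2.22-fold (log2 fold change -1.14 ± 0.23, adjusted p = 0.011), and after detrending the value of -0.44 did not pass. Grin2c had 459.8 in young 1. Young 2 and 3 had 143 and 128, and the old libraries 100.4, 198 and 208. Its groups overlapped, and its log2 fold change was -0.34 with young 1 and 0.25 without it. Grin2b had few reads, at 40.4, 11.8 and 12.1 in young and 7.40, 11.4 and 2.90 in old libraries, and did not pass (-1.37 ± 0.65, adjusted p = 0.143; -0.81 without young 1). Grin2a, outside the limit on the mean, was at 14.1, 1.97 and 0 in young and at 0 in all 3 old libraries. Of the GluN3 genes, Grin3a was at 480.5, 219 and 218 in young and 179.7, 245 and 196 in old libraries (-0.47, or -0.09 without young 1; adjusted p = 0.282), and Grin3b at 10.8 to 36.7 over all libraries. Because the GluN2 and GluN3 transcripts were rare, Grin1 made up 95.0% ± 2.75 of the NMDA level per kb in young and 95.3% ± 1.15 in old nerves.

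Grid1 encodes the delta receptor GluD1, a member of the family whose products bind cerebellins rather than glutamate and organise synapses. Its groups overlapped, with means of 119 ± 48.0 and 93.5 ± 24.4 (-0.31, or -0.01 without young 1). The cerebellin gene Cbln1 rose from 644 ± 43.2 to 1566 ± 311 (1.26 ± 0.14 on the log2 scale, adjusted p = 0.00445).

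Of the metabotropic receptor genes Grm3, Grm4, Grm5 and Grm7, none passed in limma or without adjustment, nor did any in edgeR. Grm7, a presynaptic group III receptor in most neurons, was the most abundant of them per kb, with normalised counts of 1410.3, 1953 and 1833 in young and 1237, 1147 and 1728 in old libraries. Old 3 was inside the young range (-0.35 ± 0.18, adjusted p = 0.177), and Grm7 passed without it (-0.53), while the value was -0.23 without old 2. Grm4, of the same group, was at 189 ± 36.0 and 175 ± 57.6, and the group II gene Grm3 at 73.4 ± 34.7 and 67.5 ± 21.4. With 1 library left out their log2 fold changes ranged from -0.38 to 0.12 and from -0.34 to 0.28. The group I gene Grm5, whose product signals through phospholipase C and binds Homer, was low and uneven, at 134, 16.7 and 5.51 in young and 29.6, 46.5 and 25.1 in old libraries. Young 1 was above every other library, and all old values lay between it and the other young ones (0.43 ± 1.01, adjusted p = 0.767). The sign turned on single libraries, with 1.65 without young 1 and -0.54 without young 3.

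Young 1 stood apart in several members of low abundance, and markers of central neurons differed between libraries without one common order. Of the 44 members, 22 had their highest value in young 1, 11 in young 2 and none in young 3. The matching share over all tested genes was not computed, so this count is not shown to be particular to the members. Of the 14 general neuronal markers, 10 were highest in young 1, 3 in young 2 and 1 in old 3. Of 10 listed genes of central and granule neurons, 4 were highest in young 1 (Gad2, Slc32a1, Slc6a5 and Neurod6), and 3 were highest in old 2 (Gabra6, Cbln3 and Zic1). Gad1 was highest in young 3, Slc17a7 in young 2 and Zic2 in old 1. Gad2, an enzyme of GABA synthesis, was at 135 in young 1 and at 7.40 to 36.1 in the other 5 libraries. Neurod6, a transcription factor of forebrain neurons, was at 12.2 in young 1, 0.949 in old 2 and 0 elsewhere. Gabra6, a GABA receptor subunit of cerebellar granule cells, was at 23.5 in young 1, 73.1 in old 2 and 0.967 to 17.6 elsewhere. The glycine transporter gene Slc6a5 was at 16.0 in young 1, 5.69 in old 2, 8.70 in old 3 and 0 elsewhere. The vesicle calcium sensor gene Syt1, from the list of general neuronal markers, was at 6020.3 in young 1 against 154 to 1015 elsewhere. Over the whole list the sums were 27351 to 32093 in young and 13842 to 20963 in old libraries, and most of each sum was Slc17a7, which spiral ganglion neurons express too. The list had 8 tested genes, of which Slc17a7 fell (-1.07 ± 0.24; not without young 2 or young 3) and none rose. The part of such cells in the members' values was not tested. Without young 1, Gria2 and Shank3 lost their calls, and the other 12 of the 14 members still passed.

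**Figure D3:**
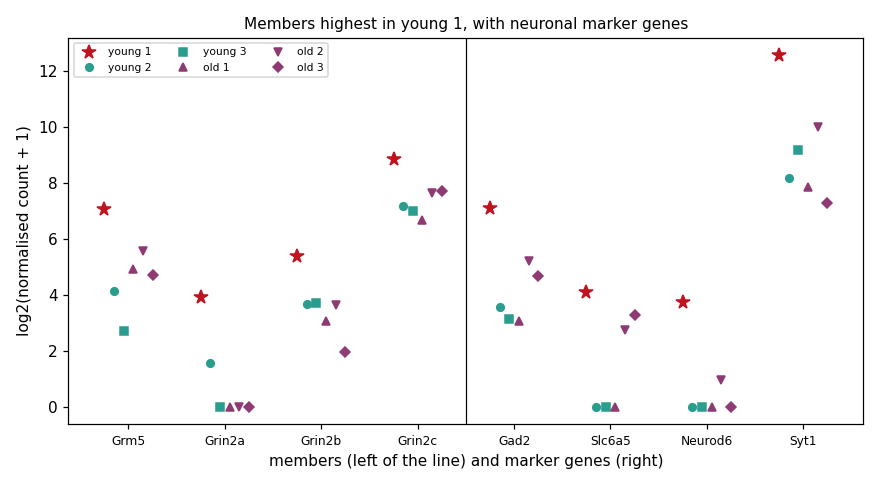
Points give log2(normalised count + 1) in each of the 6 libraries, for 4 genes of the name pattern to the left of the line (Grin2a among them, which missed the limit on the mean) and 4 marker genes to its right; the star is young 1. The genes were chosen after their values were seen, and young 1 is the highest library in all 8.

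Among the PSD-95 family, Dlg4 and Dlg2 fell and the other 3 genes did not pass. Dlg4 encodes PSD-95, the main scaffold of excitatory postsynaptic sites, and lies in mm10 on chromosome 11 from 70018605 to 70045531. Its normalised counts were 4789.5, 4592 and 4429 in young and 1943, 2404 and 3190.3 in old libraries. The highest old value was well under the lowest young one, and the mean fell 1.83-fold (log2 fold change -0.90 ± 0.17, adjusted p = 0.00861). Dlg4 passed in 16 of 18 alternatives, among them each library left out in turn and detrending (-0.72). It lost its call without young 1 and old 2 together, and with detrending plus a term for replicate number. Dlg2 (PSD-93), the most abundant Dlg gene per kb, had normalised counts of 11162, 13697 and 12601 in young and 7487, 7958 and 10698 in old libraries. Old 3 was just under young 1, and the log2 fold change was -0.53 ± 0.15 (adjusted p = 0.0294). Dlg2 did not pass without young 2 (-0.46), young 3 (-0.52), old 1 (-0.43) or old 2 (-0.48), nor after detrending (-0.34).

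The other Dlg genes are expressed in epithelia as well as in neurons. Dlg1 (SAP97) had means of 3856 ± 174 and 4411 ± 345 (0.19 ± 0.08, adjusted p = 0.0959), Dlg3 (SAP102) of 1938 ± 72.8 and 2181 ± 214 (0.17 ± 0.09) and Dlg5 of 2058 ± 107 and 2029 ± 234 (-0.03 ± 0.10). All 3 overlapped between the groups, and all 3 were called higher after detrending (0.29, 0.35 and 0.46). As a share of the family's level per kb, Dlg4 went from 20.2% ± 1.65 to 13.4% ± 2.16, and Dlg1 from 17.4% ± 0.53 to 24.8% ± 4.12. Neither share overlapped between the groups (exact permutation p = 0.1 for each).

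SAPAP genes fell in 3 of 5 cases, and those 3 passed after detrending. Dlgap3 (SAPAP3) had the largest fall of the members that passed. It lies on chromosome 4 from 127169204 to 127237022 and was at 727, 823 and 769 in young and 204, 236 and 409 in old libraries. Every old value was below every young one, with a 2.73-fold lower mean in old nerves, 283 ± 110.3 against 773 ± 48.1 (log2 fold change -1.51 ± 0.25, adjusted p = 0.00692). Dlgap1 (SAPAP1), the most abundant of the family per kb in young nerves, had normalised counts of 3457, 3651 and 3411 in young and 1639.7, 1959 and 2234 in old libraries. The groups were far apart (-0.86 ± 0.11, adjusted p = 0.00506), and Dlgap1 and Dlgap3 passed in all 18 alternatives, with adjusted p up to 0.0440 and 0.0469. Dlgap2 (SAPAP2), at 134, 173 and 167 in young and 59.2, 54.1 and 102 in old libraries, fell by 1.18 ± 0.27 on the log2 scale (adjusted p = 0.0161). Dlgap2 passed in 14 of 18 alternatives, and missed the threshold without young 2 (-1.11) or young 3 (-1.14), among others.

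Dlgap4 (SAPAP4) was at 1781, 1666 and 1711 in young and 1582, 1569 and 1573 in old libraries. The groups did not overlap, but the difference was small and did not pass (-0.13 ± 0.06, adjusted p = 0.152), and after detrending Dlgap4 was called higher (0.29). Its share of the SAPAP level per kb was 33.3% ± 1.64 in young and 48.0% ± 4.98 in old nerves, while that of Dlgap3 was 17.2% ± 0.81 and 9.69% ± 2.72 (exact permutation p = 0.1 for each). Dlgap5, which acts at the mitotic spindle rather than at synapses, was at 11.5 ± 4.18 and 11.6 ± 2.03.

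**Figure D4:**
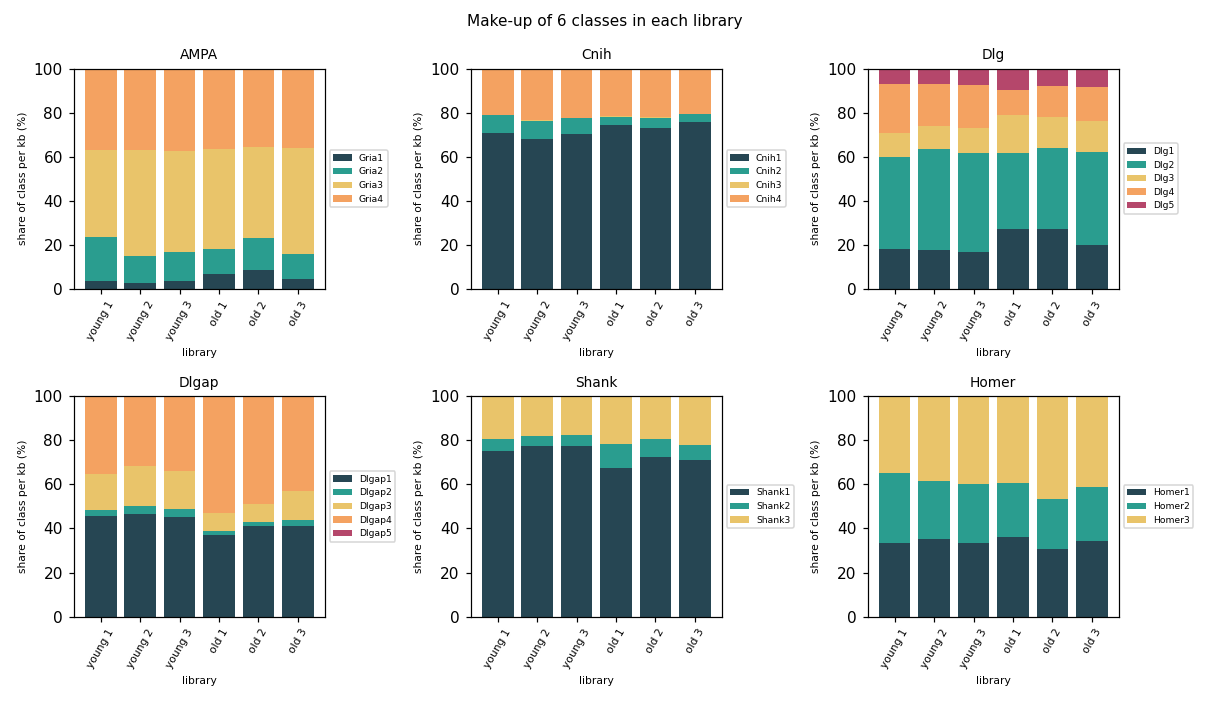
Stacked bars give the share of each gene in the summed normalised count per kb of its class, in percent, for 6 classes and 6 libraries. The share of Gria1 is larger in the old libraries, those of Dlg4, Dlgap3 and Cnih2 are smaller, and that of Dlgap4 is larger.

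Shank proteins form the deep layer of the postsynaptic scaffold. Shank1 lies on chromosome 7 from 44310264 to 44358353 and was the most abundant of the family per kb, with normalised counts of 4742, 4568 and 4366 in young and 1499, 1801 and 2757 in old libraries. The groups were far apart and the mean fell 2.26-fold (log2 fold change -1.22 ± 0.20, adjusted p = 0.00719). After detrending the fall was smaller and still passed (-0.48). Shank1 passed in 16 of 18 alternatives. It lost its call without young 1 and old 2 together, and with detrending plus a term for replicate number. Its exons overlap those of 1700008O03Rik on the opposite strand. Shank3 was at 914, 800.1 and 734 in young and 360.5, 362 and 639 in old libraries, without overlap (-0.89 ± 0.23, adjusted p = 0.0231). Shank3 passed in 9 of 18 alternatives. It lost its call without young 1 (-0.81), young 2 (-0.91), young 3 (-0.97), old 1 (-0.76) or old 2 (-0.76), and after detrending (-0.20). Shank2, also known from epithelia, overlapped between groups (271 ± 38.4 and 216 ± 27.6, adjusted p = 0.16). Shank1 held 76.7% ± 1.30 of the family's level per kb in young and 70.4% ± 2.54 in old nerves (exact permutation p = 0.1).

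Homer2 fell, passing in 14 of 18 alternatives, and the other Homer genes did not pass. Homer2 was at 2384, 2063 and 2063 in young and 1419, 1462 and 1781 in old libraries, without overlap (log2 fold change -0.49 ± 0.11, adjusted p = 0.0153), and its value of -0.19 after detrending did not pass. Homer1, which includes short forms induced by activity that the gene counts do not separate, was at 1296, 1451 and 1324 in young and 1098, 1043 and 1299.7 in old libraries. Old 3 lay within the young range (-0.25 ± 0.10, adjusted p = 0.0991), and Homer1 passed without it (-0.34). Homer3 was at 689 ± 58.3 and 662 ± 102, and its exons overlap those of Ddx49 on the opposite strand.

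**Figure D5:**
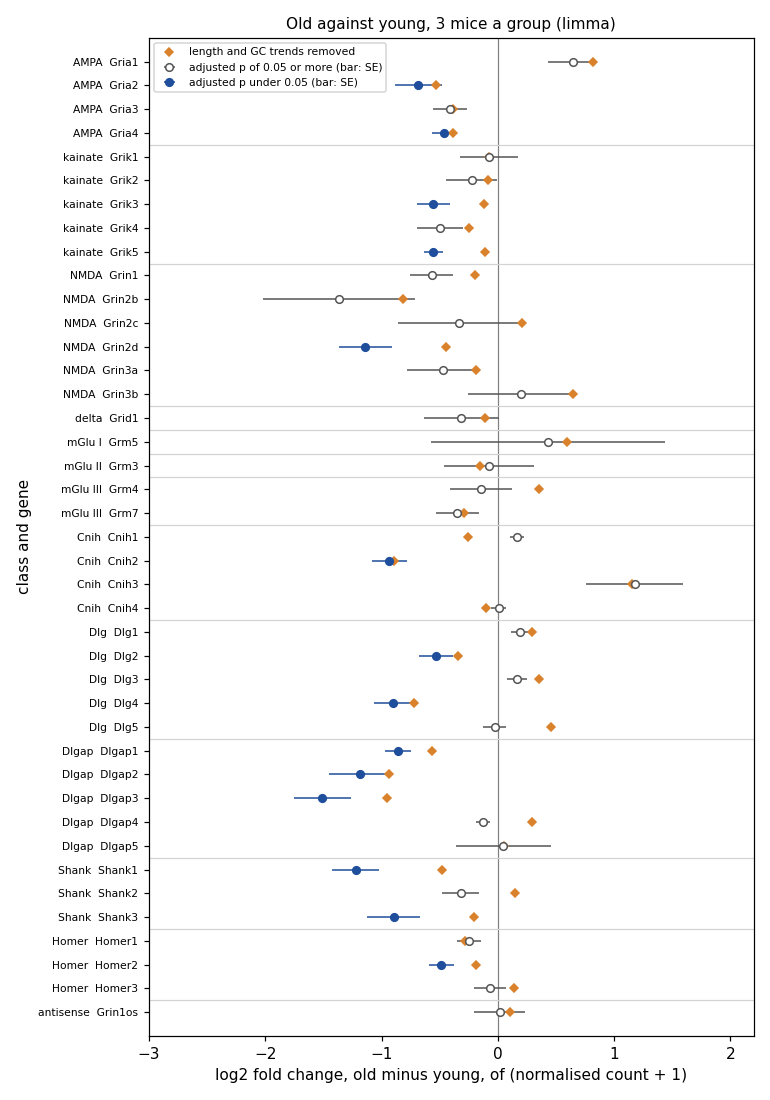
Circles give the log2 fold change (old minus young) of 41 members with its SE, filled where the adjusted p is under 0.05, and orange diamonds the value after detrending. The 14 filled circles all lie below 0. The diamonds of Gria4, Cnih2, Dlg4, Dlgap1 to Dlgap3 and Shank1 are the falls that passed after detrending. Those of Gria1, Dlg1, Dlg3, Dlg5 and Dlgap4 lie above 0, and these 5 were called higher after detrending.

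Partners of these receptors and scaffolds were taken from lists of 120 genes, chosen with earlier results of these data known. Of 118 tested, 52 fell and 4 rose, with a median log2 fold change of -0.41. After detrending 32 fell and 8 rose. These counts stand beside 18.7% and 15.9% of all tested genes, and 12.7% and 10.2% after detrending. Auxiliary subunits of AMPA and kainate receptors fell in 8 of 16 cases and rose in 1 (median -0.72). Cacng2, which encodes stargazin, the auxiliary subunit that brings AMPA receptors to the synapse, went from 783 ± 11.5 to 278 ± 94.8 (-1.55 ± 0.23, adjusted p = 0.00595). Shisa7 rose from a mean of 372 to 534 (0.52 ± 0.16, adjusted p = 0.0392), and lost its call when young 1, young 2, young 3, old 1 or old 2 was left out.

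Adhesion proteins and organisers of synapses fell in 15 of 32 cases, with Cbln1 the 1 rise (median -0.62). Lrfn1, an adhesion protein that binds PSD-95, fell from 639 ± 24.9 to 230.1 ± 31.7 (-1.48 ± 0.13, adjusted p = 0.00399) and Lrfn3 from 534 ± 4.81 to 271 ± 41.5. The receptor phosphatase gene Ptprs (-1.05 ± 0.12), the ephrin receptor gene Ephb2 (-1.02 ± 0.13) and the neuroligin genes Nlgn3 (-0.95 ± 0.16) and Nlgn2 (-0.66 ± 0.09) fell too. After detrending Ephb2 (-0.48) and Nlgn2 (-0.14) did not pass. Other scaffold and spine genes fell in 16 of 26 cases and Lin7c rose (0.59 ± 0.12). Examples are Ppp1r9b, which encodes spinophilin (-0.71 ± 0.11), Sipa1l2 (-0.87 ± 0.14) and Sipa1l3 (-0.50 ± 0.07), of which Sipa1l2 alone passed after detrending.

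Trafficking and signalling partners fell in 9 of 29 cases with no rise (median -0.27). After detrending 4 of 29 fell, near the 12.7% of all tested genes, and 2 rose. Grip1, which binds the tails of GluA2 and GluA3, fell from 805 ± 69.4 to 532 ± 19.6 (-0.59 ± 0.10, adjusted p = 0.00685), and Iqsec1, an exchange factor in receptor endocytosis, by 0.95 ± 0.15 on the log2 scale. Genes of glutamate transport and metabolism fell in 4 of 15 cases and rose in 1 (median -0.11), beside 18.7% and 15.9% of all tested genes. After detrending 3 fell and 1 rose, beside 12.7% and 10.2%. The rise was Glul, the glutamine synthetase of glia, from 52916 ± 3502 to 79533 ± 4531 (0.59 ± 0.11, adjusted p = 0.0098).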

How the data were processed

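RNA sequencing libraries of auditory nerve from 3 young and 3 old mice were compared. The submitters' processing notes name the mm10 build and TopHat2, Partek and DESeq2. Settings and annotation: not given in the sources used here. All 6 sample columns of the deposited table hold a signal, read counts divided by 1 size factor per library by the authors. Whole multiples of the value of 1 read (0.940 to 1.10) made up 99.9% or more of the values above 0 in each library, within a tolerance of 0.1, and gave the recovered reads. Per the file headers, the authors also deposited p-values, an FDR (no value in 342 rows) and a signed fold change score. Printed ends are the deposited stop less 1.

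The test was limma (3.58.1) with trended variances on log2(value + 1), two-sided, Benjamini-Hochberg adjusted over the 15882 genes whose recovered reads edgeR's filterByExpr kept (minimum count 10, minimum total 15), with a threshold of 0.05. The added 1 understates the change of low genes. On recovered reads edgeR (4.0.16) and DESeq2 (1.42.0) were run as alternatives. Transcript length and GC came from the longest coding transcript in GENCODE M21, matched for 93.8% of tested genes and all members, and smooth curves in both, fitted per library with mgcv (1.9.3) to deviations from gene means, were subtracted for detrending. For a share of a class, values per kb were used with an exact two-sided permutation test. Steps were tested on simulated counts. Pairs of replicates were compared by a chi-square of their reads, which was 19.0 to 66.4 per degree of freedom, above sampling noise.

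The members, classes and lists were chosen with earlier results of these data known. Some members are not reported here, though the counts, medians and shares include them. Every other member is named. Values in each library are given for members that passed, for the most abundant of each class and for members whose libraries differ widely. From the partner lists, genes with the smallest p were named, and Cbln1, Glul, Lin7c and Shisa7 because they are the rises.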

Additional observations from a re-analysis of the deposited data

How the results depend on the processing

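Of 792 values of single members under an alternative, 717 kept their call or lack of one, 51 lost a call, 22 gained one and 2 passed with the sign turned. Only the 14 members that fell could lose a call, and the 30 others counted as kept when they stayed uncalled. The 2 were Dlg5 (0.46) and Dlgap4 (0.29) with the length and GC trends removed. Leaving out single libraries gave 9 to 17 falls and 0 to 3 rises among members, a median from -0.50 to -0.18, and 2589 to 6117 genes called over the whole table. Without both young 1 and old 2 there were 5 falls, and 1776 genes were called. With the length and GC trends removed there were 7 falls, 5 rises, a median of -0.13 and 3409 genes called. Rises numbered 1 in edgeR, DESeq2 and the authors' own FDR and 3 with upper-quartile scaling. The cause of these differences was not tested. Fits that leave out libraries also rest on fewer of them. The replicate numbers did not pair the libraries (correlations of the deviations of same-numbered libraries -0.29, -0.41 and -0.05). With the replicate block 10 members fell and 2711 genes were called, and with the block and the trends removed 3 fell, none rose, the median was -0.13 and 828 genes were called. No share of a class passed in any fit, which the group sizes do not allow. The replicate block and undivided values were added for shares after seeing the data. At this depth members under a mean of 100, 7 in all, could show only large changes, and none passed.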
